A study of Mus musculus with 19 samples.

Results

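The genes described here are 10 chemokine genes, Ccl2, Ccl3, Ccl4, Ccl5, Ccl6, Ccl9, Ccl12, Cxcl10, Cxcl16 and Cx3cl1, followed in mouse hippocampus after a seizure episode. They were taken from the deposited count table of 55416 genes as the rows whose gene ID carries one of these symbols in the authors' annotation table. Each symbol matched 1 row, and all 10 were among the 19234 genes with enough reads to be tested.

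The study sequenced RNA of 19 hippocampal samples from C57BL6 mice by total RNA sequencing after ribosomal RNA depletion. Status epilepticus, a prolonged seizure, had been induced with repeated low doses of kainate, a glutamate receptor agonist, and tissue was taken on day 4. There were 4 EZH2nHom kainate, 5 EZH2nHom saline, 5 WT kainate and 5 WT saline libraries. EZH2nHom mice, labelled EZH2(-/-);Syn1Cre(+/-), had the gene for EZH2, the histone H3 lysine methyltransferase of the Polycomb complex, deleted in neurons through Synapsin1-Cre and floxed alleles. WT mice, labelled EZH2(+/+);Syn1Cre(+/-), carried the same Cre, so every group had the driver. Controls of both genotypes had received saline by intraperitoneal injection. The labels used here give no age.

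Chemokines are small secreted or membrane-anchored proteins that guide leukocytes through G-protein-coupled receptors. Ccl2 and Ccl12 bind Ccr2 on monocytes. Ccl3 and Ccl5 bind Ccr1 on myeloid cells, and Cxcl10 binds Cxcr3 on T and NK cells. Cx3cl1 is unlike the others in the brain: neurons make it under resting conditions, and its receptor Cx3cr1 marks microglia.

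Libraries held between 24496685 and 43948317 counted reads. Levels are given in CPM, the read count scaled to library size after TMM normalisation. Ezh2 itself averaged 17.5 ± 2.39 CPM in EZH2nHom kainate and 13.6 ± 1.42 in EZH2nHom saline libraries (SD, n = 4 and 5), and 15.2 ± 4.53 CPM in WT kainate and 11.2 ± 1.17 in WT saline libraries (SD, n = 5 each). Neither genotype comparison passed (adjusted p = 0.473 after kainate and 0.288 after saline). This whole-gene count over all hippocampal cells is not a check of a deletion in neurons, and EZH2nHom and WT are the labels' names throughout. One library stood apart before any comparison: EZH2nHom kainate replicate 2 had -119.8 on the second principal component, against -22.9 to 31.1 for the other libraries. Results on its group are therefore also given without it.

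Kainate raised 9 of the 10 chemokine genes in both genotypes, and Cx3cl1 was the exception in both. In EZH2nHom mice 9 members were higher after kainate and none lower, where 14.3% of all tested genes were higher and 11.8% lower (edgeR quasi-likelihood test, Benjamini-Hochberg adjusted p below 0.05). In WT mice 9 members were higher and none lower, where 9.47% of all tested genes were higher and 2.57% lower. The members' median log2 fold change was 4.48 in EZH2nHom mice, or 4.46 with Ccl5 at its lower bound, and 4.24 in WT mice, and the median over all tested genes was -0.02 in both. The 9 calls also stood without EZH2nHom kainate replicate 2 and without WT kainate replicate 4. In EZH2nHom mice 9 members had every kainate library above every saline library, where 9.93% of all tested genes did, and in WT mice 7 members did, where 9.79% of all tested genes did. These are bulk tissue values, in which fewer cells of a type and less RNA per cell cannot be told apart.

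**Figure D1:**
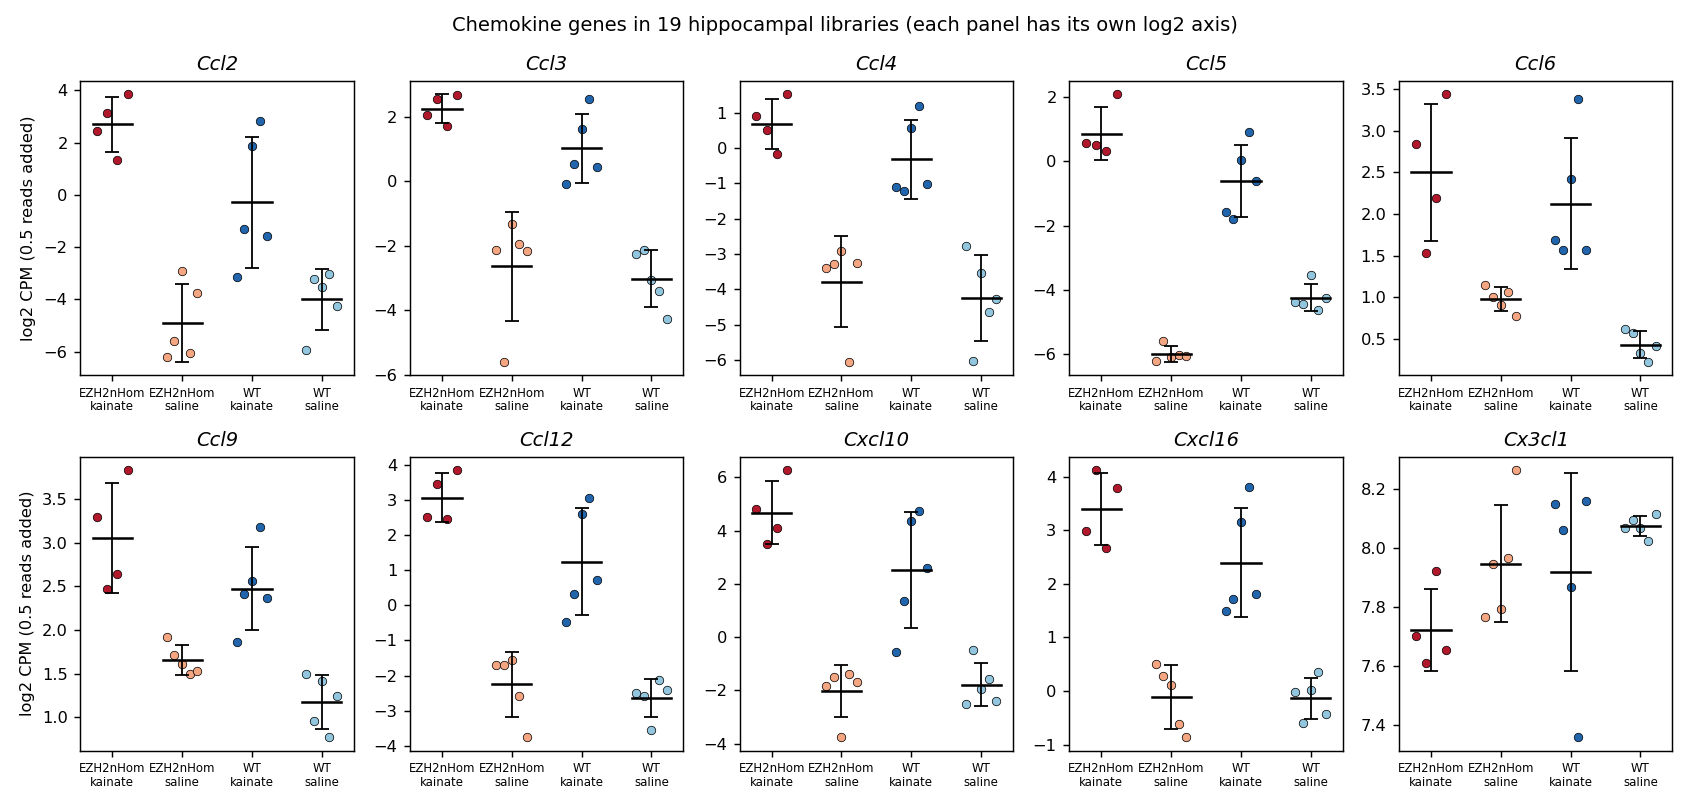
Expression of the 10 chemokine genes in each library, as log2 CPM with 0.5 reads added, by group; each point is a library, the line is the group mean and the bar 1 SD (n = 4 for EZH2nHom kainate, 5 for the others). The kainate points lie above the saline points for 9 genes, apart from Ccl2 and Cxcl10 in WT mice, where the lowest kainate library lies within the saline range, and for Cx3cl1 the kainate and saline libraries of each genotype overlap.

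The promoters of 3 members are shown here because they mark the range of the responses: Cxcl10 and Ccl12 rose steeply in both genotypes, and Cx3cl1 did not pass in either. Each sequence runs 5′ to 3′ on the gene's strand from 250 bases before the RefSeq start to 50 after it, in GRCm38.p6. Capitals mark matches, on either strand, to a kB motif (GGGNNNNNCC), the pattern bound by NF-kB, or to an interferon-stimulated response element (ISRE, TTTCNNTTTC), the pattern bound by STAT and IRF factors. The Cxcl10 window is chr5:92348840-92349139 on the minus strand, the Ccl12 window is chr11:82101595-82101894 on the plus strand, and the Cx3cl1 window is chr8:94771930-94772229 on the plus strand.
Cxcl10: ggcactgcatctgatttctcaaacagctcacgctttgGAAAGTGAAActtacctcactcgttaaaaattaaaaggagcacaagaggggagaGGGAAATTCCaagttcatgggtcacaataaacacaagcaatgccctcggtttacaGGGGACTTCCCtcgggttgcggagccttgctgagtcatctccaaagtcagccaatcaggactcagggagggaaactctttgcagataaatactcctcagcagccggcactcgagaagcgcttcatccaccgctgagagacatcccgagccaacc
Ccl12: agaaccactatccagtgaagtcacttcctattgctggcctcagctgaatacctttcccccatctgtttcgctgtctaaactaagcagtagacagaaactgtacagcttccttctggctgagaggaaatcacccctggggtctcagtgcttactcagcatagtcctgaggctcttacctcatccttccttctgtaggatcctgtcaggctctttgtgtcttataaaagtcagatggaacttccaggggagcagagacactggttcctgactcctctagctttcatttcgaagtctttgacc
Cx3cl1: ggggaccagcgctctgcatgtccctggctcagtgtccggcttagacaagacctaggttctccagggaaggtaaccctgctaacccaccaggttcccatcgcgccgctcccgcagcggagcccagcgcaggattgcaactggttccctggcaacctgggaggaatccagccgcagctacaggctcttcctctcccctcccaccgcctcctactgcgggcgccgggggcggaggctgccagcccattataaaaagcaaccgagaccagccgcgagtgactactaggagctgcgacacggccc
In Cxcl10 the ISRE match, on the opposite strand, lay from -213 to -204 relative to the start. One kB match lay from -159 to -150, and 3 more lay in 1 stretch, from -104 to -95 and, on both strands, from -103 to -94. Of the 6 members with a promoter sequence, Ccl9 held 1 kB match from -35 to -26, and Ccl3, Ccl6, Ccl12 and Cx3cl1 held neither motif. Among 32851 RefSeq promoters of the same length, 50.8% held the kB motif, 3.44% the ISRE and 1.3% both. A match describes these letters only, and no binding was measured.

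The Ccr2 ligands were nearly silent after saline and had many reads after kainate. Ccl2, the main attractant of monocytes, had 5.4, 8.80, 2.54 and 14.3 CPM in the EZH2nHom kainate libraries, against 0, 0, 0.118, 0 and 0.0594 CPM in the EZH2nHom saline libraries. In WT mice Ccl2 had 0.0959, 0.387, 3.63, 6.98 and 0.319 CPM in the kainate libraries, against 0, 0.0917, 0.0688, 0.108 and 0.0346 CPM in the saline libraries. The EZH2nHom groups were far apart, whereas in WT mice replicates 3 and 4 were high and replicate 1, with 3 reads, lay inside the saline range. Ccl2 rose by a log2 fold change of 7.57 ± 1.19 (SE, adjusted p = 0.000183) in EZH2nHom mice, where the saline group held 6 reads in all, and 5.08 ± 1.11 (SE, adjusted p = 0.00507) in WT mice. In WT mice its call was lost with a covariate for the share of structural RNA, small nuclear, nucleolar and similar RNAs (adjusted p = 0.132).

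Ccl12, a close mouse relative of Ccl2, had the same layout. It had 5.65, 11, 5.47 and 14.3 CPM in EZH2nHom kainate libraries, against 0.298, 0.290, 0.326, 0.152 and 0.0594 CPM in EZH2nHom saline libraries. It had 0.704, 1.24, 6.06, 8.27 and 1.62 CPM in WT kainate libraries, against 0.161, 0.153, 0.0688, 0.215 and 0.173 CPM in WT saline libraries. Neither genotype had overlapping groups, although WT kainate replicate 1 was closer to the saline libraries than to replicate 4. Ccl12 rose by a log2 fold change of 5.32 ± 0.66 (SE, adjusted p = 2.29e-05) in EZH2nHom mice and 4.47 ± 0.66 (SE, adjusted p = 0.000272) in WT mice.

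Ccl3, Ccl4 and Ccl5, inflammatory CC chemokines, had few reads per library after saline and rose in both genotypes. Ccl3, a ligand of Ccr1 that activated microglia make, had 4.17, 5.90, 3.28 and 6.35 CPM in EZH2nHom kainate libraries, against 0.217, 0, 0.385, 0.243 and 0.208 CPM in EZH2nHom saline libraries. Ccl3 had 0.927, 1.44, 3.08, 5.88 and 1.36 CPM in WT kainate libraries, against 0.193, 0.214, 0.103, 0.0808 and 0.0346 CPM in WT saline libraries. All kainate libraries of either genotype were above all saline libraries. Ccl3 rose by a log2 fold change of 4.47 ± 0.57 (SE, adjusted p = 2.76e-05) in EZH2nHom mice and 4.28 ± 0.59 (SE, adjusted p = 0.000165) in WT mice. Ccl4, its close relative, had 1.86, 1.39, 0.877 and 2.84 CPM in EZH2nHom kainate libraries, against 0 to 0.118 CPM in EZH2nHom saline libraries. Ccl4 had 0.448, 0.415, 1.45, 2.27 and 0.479 CPM in WT kainate libraries, against 0 to 0.129 CPM in WT saline libraries. The groups did not overlap in either genotype, and Ccl4 rose by a log2 fold change of 4.48 ± 0.66 (SE, adjusted p = 8.29e-05) in EZH2nHom mice and 4.20 ± 0.69 (SE, adjusted p = 0.000498) in WT mice.

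Ccl5, a ligand of Ccr1 made by T cells and by activated glia, had no read in any EZH2nHom saline library. It had 1.46, 1.39, 1.22 and 4.22 CPM in EZH2nHom kainate libraries, where 3 reads, the limit that a count of 0 allows, amount to 0.0812 to 0.124 CPM in a saline library. Against that limit Ccl5 was at least 21.8-fold higher in EZH2nHom kainate libraries (adjusted p = 1.96e-05). Ccl5 had 0.320, 0.277, 1.02, 1.84 and 0.639 CPM in WT kainate libraries, against 0.0322, 0.0306, 0.0688, 0.0269 and 0.0346 CPM in WT saline libraries, which is 1 or 2 reads per saline library. It rose by a log2 fold change of 4.27 ± 0.70 (SE, adjusted p = 0.000955) in WT mice, with no overlap between the groups. These limits, and the reads per library, cover counting error only.

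Ccl6 and Ccl9, rodent CC chemokines that bind Ccr1, were present after saline and rose less after kainate. Ccl6 had 7.13, 2.86, 4.57 and 10.8 CPM in EZH2nHom kainate libraries, against 2.19, 1.99, 1.87, 2.07 and 1.69 CPM in EZH2nHom saline libraries. Ccl6 had 3.20, 2.96, 5.33, 10.4 and 2.95 CPM in WT kainate libraries, against 1.51, 1.47, 1.24, 1.16 and 1.31 CPM in WT saline libraries. Its kainate and saline libraries did not overlap in either genotype, but the lowest kainate library was close to the saline range. The log2 fold change was 1.69 ± 0.36 (SE, adjusted p = 0.00197) in EZH2nHom mice and 1.88 ± 0.36 (SE, adjusted p = 0.00156) in WT mice. Ccl9 had 9.79, 5.50, 6.21 and 14.2 CPM in EZH2nHom kainate libraries, against 2.80 to 3.76 CPM in EZH2nHom saline libraries. Ccl9 had 3.61, 5.31, 5.88, 9.02 and 5.14 CPM in WT kainate libraries, against 1.70 to 2.80 CPM in WT saline libraries. The groups again did not overlap, and Ccl9 rose by a log2 fold change of 1.5 ± 0.26 (SE, adjusted p = 0.000413) in EZH2nHom mice and 1.34 ± 0.26 (SE, adjusted p = 0.00179) in WT mice.

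Cxcl10, an interferon-induced chemokine whose promoter is printed above, varied widely among kainate libraries. It had 28, 11.4, 17.1 and 77.6 CPM in EZH2nHom kainate libraries, against 0.271, 0.331, 0.0592, 0.365 and 0.297 CPM in EZH2nHom saline libraries. It had 0.672, 2.57, 20.7, 26.5 and 6.12 CPM in WT kainate libraries, against 0.161, 0.703, 0.241, 0.323 and 0.173 CPM in WT saline libraries. The highest WT kainate library had 39.5 times the CPM of the lowest, which lay inside the saline range, and in EZH2nHom mice the kainate libraries differed by up to 6.78 times and were all above saline. Cxcl10 rose by a log2 fold change of 6.98 ± 0.96 (SE, adjusted p = 6.92e-05) in EZH2nHom mice and 5.10 ± 0.90 (SE, adjusted p = 0.0011) in WT mice.

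Of the chemokines with a transmembrane stalk, Cxcl16 rose and Cx3cl1 did not pass. Cxcl16, a ligand of Cxcr6, had 7.96, 17.4, 6.35 and 13.8 CPM in EZH2nHom kainate libraries, against 1.41, 1.20, 1.07, 0.639 and 0.535 CPM in EZH2nHom saline libraries. Cxcl16 had 2.78, 3.29, 8.89, 13.9 and 3.49 CPM in WT kainate libraries, against 0.966, 0.642, 0.997, 1.27 and 0.726 CPM in WT saline libraries. Groups did not overlap, and Cxcl16 rose by a log2 fold change of 3.55 ± 0.46 (SE, adjusted p = 3.31e-05) in EZH2nHom mice and 2.80 ± 0.45 (SE, adjusted p = 0.000401) in WT mice. Cx3cl1, the neuronal ligand of Cx3cr1, had 208, 195, 243 and 202 CPM in EZH2nHom kainate libraries, against 218, 247, 222, 250.3 and 308 CPM in EZH2nHom saline libraries. Cx3cl1 had 284, 267, 234, 164 and 286 CPM in WT kainate libraries, against 268, 274, 269, 260.4 and 277 CPM in WT saline libraries. The groups overlapped in both genotypes, and WT kainate replicate 4, the highest library for the 9 responding genes, was the lowest for Cx3cl1. Its log2 difference was -0.23 ± 0.13 (SE, 95% interval -0.51 to 0.04, adjusted p = 0.207) in EZH2nHom mice and -0.13 ± 0.12 (SE, 95% interval -0.39 to 0.13, adjusted p = 0.584) in WT mice. Those intervals limit a fall of Cx3cl1 but do not show equality.

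**Figure D2:**
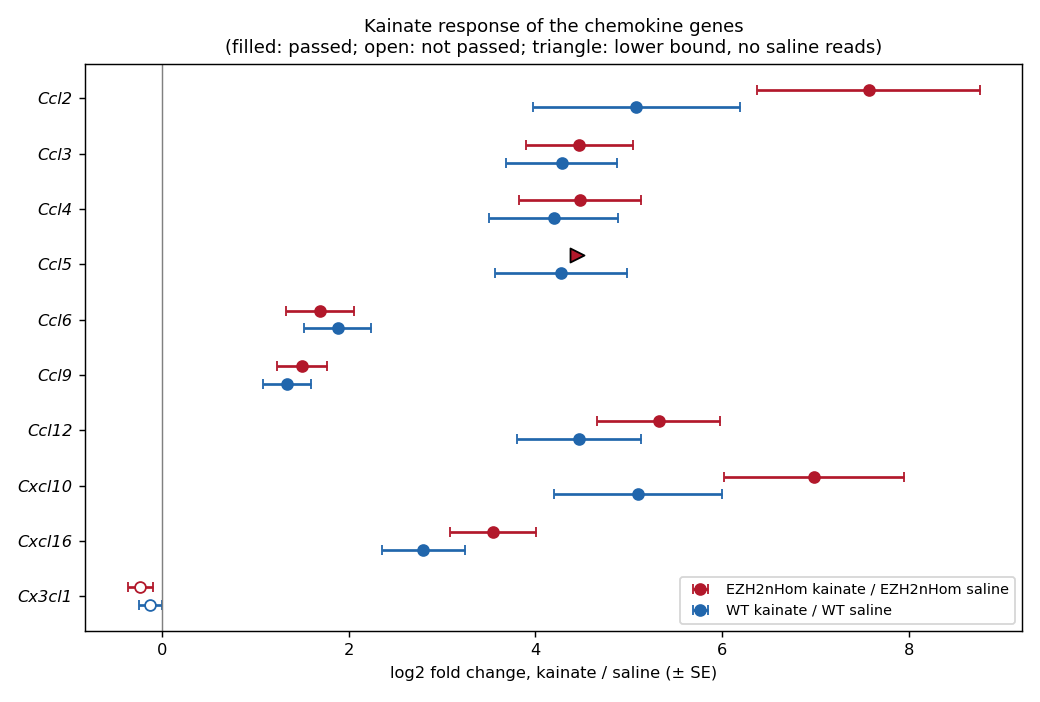
Log2 fold change of kainate over saline for each gene, with its SE, in EZH2nHom and WT mice; filled points passed the test, open points did not, and the triangle is the lower bound for Ccl5 in EZH2nHom mice (at least 21.8-fold). Among the genes drawn as points, Ccl2 and Cxcl10 had the largest values in EZH2nHom mice, 7.57 and 6.98; the triangle gives Ccl5 no place in that order. Among the points that passed, Ccl6 and Ccl9 had the smallest rises, and Cx3cl1 lay just below 0.

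In the reference annotation, the single exon of Cxcl10 on chromosome 5 is overlapped by Art3 and exons of Cxcl16 on chromosome 11 by Zmynd15, each on the opposite strand. Whether counting used strand is not given in the sources used here, so reads of Cxcl10 and Art3, and of Cxcl16 and Zmynd15, may be mixed. Art3 averaged 3.15 CPM in EZH2nHom kainate and 2.52 in EZH2nHom saline libraries, and 2.08 CPM in WT kainate and 1.70 in WT saline libraries, and passed in neither genotype. Zmynd15 averaged 0.321 CPM in EZH2nHom kainate and 0.0300 in EZH2nHom saline libraries, and 0.384 CPM in WT kainate and 0.0970 in WT saline libraries. It passed in EZH2nHom mice (adjusted p = 0.00532) and not in WT mice (adjusted p = 0.0533). The CC genes of the list lie on chromosome 11 and Cx3cl1 on chromosome 8. None of these has an exon overlapped by another gene. At most 3.78% of the 32-base words of any of them occurs in another gene's transcripts, on either strand. The shares were 4.42% for Cxcl10, with Art3, and 18.42% for Cxcl16, with Zmynd15.

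Divided by exon length, the levels of the genes could be ordered within each group (CPM per kilobase of exon). Cx3cl1 was first in every group, with 53.9 ± 5.36 in EZH2nHom kainate, 63.3 ± 9.13 in EZH2nHom saline, 62.9 ± 12.9 in WT kainate and 68.6 ± 1.62 in WT saline libraries (SD), and did not overlap with the next gene in any group. After saline the next were Ccl6 and Ccl9, with 1.09 ± 0.11 and 1.04 ± 0.13 CPM per kilobase in EZH2nHom mice and 0.745 ± 0.084 and 0.750 ± 0.15 in WT mice (SD), and both were above the range of the gene that followed. After kainate Ccl12 and Cxcl10 came next after Cx3cl1, with 17 ± 8.05 and 14.9 ± 13.4 CPM per kilobase in EZH2nHom mice and 6.67 ± 6.30 and 5.03 ± 5.14 in WT mice (SD). Below Cx3cl1, the ranges of every 2 neighbours in the kainate order overlapped in both genotypes. Ccl5 was last in all 4 groups, at 2.16 ± 1.49 CPM per kilobase in EZH2nHom kainate and 0.853 ± 0.67 in WT kainate libraries (SD).

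The responding genes ordered the kainate libraries in nearly the same way. WT kainate replicate 4 was the highest WT library for all 9 genes and replicate 3 was second for all 9, while replicate 1 was the lowest for 6 of them, Ccl2, Ccl3, Ccl9, Ccl12, Cxcl10 and Cxcl16. EZH2nHom kainate replicate 4 was the highest of its group for 8 genes. EZH2nHom kainate replicate 2 was the highest for Cxcl16 and the lowest for Ccl6, Ccl9 and Cxcl10, and replicate 3 was the lowest for the other 6. These are genes of the same libraries, and this order is a description of 9 mice.

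Summed marker levels also differed among these libraries. The summed level of 8 microglia markers was 686 to 1457 CPM in EZH2nHom kainate and 258 to 301 in EZH2nHom saline libraries, and 561 to 1619 CPM in WT kainate and 309 to 352 in WT saline libraries. Of these 8 markers, 7 passed as higher in EZH2nHom mice and 8 in WT mice. The sum of 8 monocyte and macrophage markers was 111 to 252 CPM in EZH2nHom kainate and 44.6 to 58.4 in EZH2nHom saline libraries, and 83.3 to 427 CPM in WT kainate and 47.4 to 63.4 in WT saline libraries. All 8 passed as higher in EZH2nHom mice and 6 in WT mice, and the highest sums, 427 and 261, were in WT kainate replicates 4 and 3. The 9 T and NK cell markers summed to 0.183 to 3.13 CPM in EZH2nHom kainate and 0.460 to 1.01 in EZH2nHom saline libraries, and 0.640 to 2.35 CPM in WT kainate and 0.825 to 0.963 in WT saline libraries, and neither of the 2 that could be tested, Trac and Cd4, passed. Cd3g and Ncr1 were at 0 in every EZH2nHom saline library and Cd3e in every WT saline library. The 7 excitatory neuron markers summed to 1134 to 1584 CPM in EZH2nHom kainate and 1670 to 1998 in EZH2nHom saline libraries, and 1124 to 2402 CPM in WT kainate and 2016 to 2276 in WT saline libraries. The 5 astrocyte markers summed to 4086 to 7570 CPM in EZH2nHom kainate and 1530 to 1848 in EZH2nHom saline libraries, and 3511 to 6879 CPM in WT kainate and 1648 to 1754 in WT saline libraries, and 4 passed as higher in each genotype. The 4 oligodendrocyte markers summed to 3155 to 5106 CPM in EZH2nHom kainate and 5432 to 8620 in EZH2nHom saline libraries, where 3 passed as lower, and to 3987 to 7324 CPM in WT kainate and 4569 to 6411 in WT saline libraries, where none passed. The 5 red blood cell genes summed to 103 to 434 CPM in EZH2nHom kainate and 158 to 399 in EZH2nHom saline libraries, where none passed, and to 552 to 1973 CPM in WT kainate and 258 to 770 in WT saline libraries, where all 5 passed as higher. The lowest neuronal sum of a WT library was in replicate 4 after kainate, which also had the lowest Cx3cl1. The part of cell composition in the chemokine differences was not tested.

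**Figure D3:**
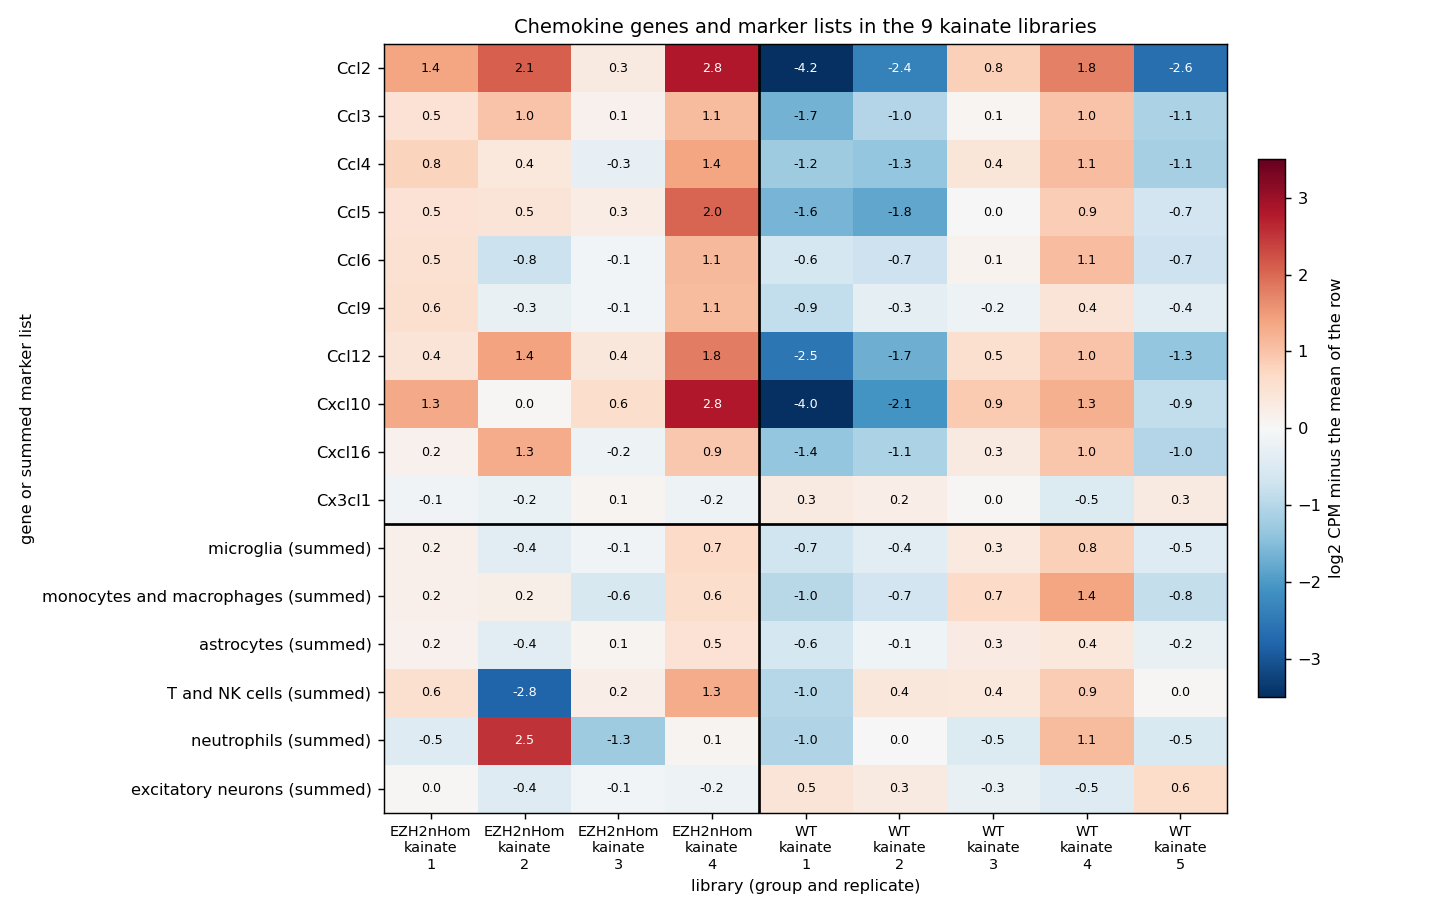
Log2 CPM of each chemokine gene, and log2 of the summed CPM of each marker list, in the 9 kainate libraries minus the mean of the row; red is above and blue below that mean. WT kainate replicates 3 and 4 are at or above the row mean for 8 and all 9 of the responding genes, WT replicates 1, 2 and 5 are below it for all 9, and EZH2nHom kainate replicate 2 is 2.5 above it for neutrophil markers and 2.8 below it for T and NK cell markers.

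The sample codes begin with a numeric prefix whose meaning the labels do not state. No prefix occurs in both genotypes, so prefix and genotype cannot be told apart. No EZH2nHom prefix occurs in both arms, so prefix and kainate also cannot be told apart in EZH2nHom mice. Only 6 WT libraries have a prefix that occurs in both arms. They are saline replicate 2 with kainate replicates 2, 3 and 4, and saline replicate 4 with kainate replicate 1. With the prefix as a block in those 6, log2 fold changes of the 9 responding genes were 1.5 to 5.55, all positive. None passed, nor did any of the other tested genes (smallest adjusted p of a member 0.406). With so few saline libraries, a lack of calls does not show a lack of response.

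The design also asks whether chemokine levels depended on neuronal EZH2. After saline no member passed between the genotypes, where 13.5% of all tested genes passed (smallest adjusted p of a member 0.154, Ccl5). Ccl6 was higher in every EZH2nHom saline library, 1.69 to 2.19 CPM, than in any WT saline library, 1.16 to 1.51 CPM, as were 12.9% of all tested genes. Its log2 difference was 0.55 ± 0.36 (SE, adjusted p = 0.346), and it passed in a fit to the saline libraries alone (0.53, adjusted p = 0.0173) and turned to -0.17 with the structural RNA covariate. Ccl5 had no read in the 5 EZH2nHom saline libraries and 6 reads in the 5 WT saline libraries, and 8.42% of all tested genes were lower in EZH2nHom saline libraries without overlap.

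After kainate no member passed between the genotypes, where 7.61% of all tested genes passed. The log2 difference was positive for 9 members and negative for Cx3cl1, with a median of 0.89 against 0.00 over all tested genes. An unadjusted p below 0.05 in the edgeR test was found for 5 members and for 4599 of all 19234 tested genes. Among those 5 members the difference was 1.36 ± 0.50 (SE, adjusted p = 0.108) for Ccl5 and 1.36 ± 0.53 (SE, adjusted p = 0.122) for Ccl12. It was 0.63 ± 0.26 (SE, adjusted p = 0.146) for Ccl9, 1.79 ± 0.80 (SE, adjusted p = 0.18) for Ccl2 and 1.58 ± 0.71 (SE, adjusted p = 0.186) for Cxcl10. Every member had overlapping groups, where 4.13% of all tested genes were higher in EZH2nHom kainate libraries without overlap. For Ccl6 the difference, 0.36 ± 0.35, turned to -0.02 without EZH2nHom kainate replicate 4.

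The labels used here give no sex. Xist, the transcript of the inactive X chromosome in females, had 418 to 657 CPM, and the Y-linked genes were low, in 5 libraries: EZH2nHom kainate replicate 1, WT kainate replicates 1 and 2 and WT saline replicates 1 and 2. Xist had at most 3.15 CPM in the other libraries, all 5 EZH2nHom saline libraries among them. WT kainate replicates 1 and 2 include the lowest WT kainate library for 8 of the 9 responding genes. EZH2nHom kainate replicate 1 was the lowest of its group for none of the 9, ranking 2nd for 5 and 3rd for 4. With a covariate from Ddx3y, Eif2s3y, Kdm5d and Uty, 9 members passed for kainate in each genotype and 0 between genotypes after saline or kainate.

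The genotype comparison after kainate changed with 1 library left out. Without WT kainate replicate 4, 7 members passed between EZH2nHom kainate and WT kainate libraries: Ccl2 at a log2 difference of 2.85 (adjusted p = 0.0279), Ccl3 at 1.54, Ccl5 at 1.89, Ccl9 at 0.84, Ccl12 at 1.93 and Cxcl16 at 1.31 were higher, and Cx3cl1 at -0.34 (adjusted p = 0.0376) was lower. In that fit 2193 of all genes passed, against 1463 with the library kept. Leaving out any other library gave no member. WT kainate replicate 4 is the library with the highest microglia and monocyte sums, and nothing in the labels sets it apart. Other values also moved with genotype. Structural RNA took 0.194 to 0.771% of reads in EZH2nHom kainate and 0.216 to 0.762% in EZH2nHom saline libraries, and 0.0693 to 0.215% in WT kainate and 0.0599 to 0.0885% in WT saline libraries. All 5 red blood cell genes listed passed as lower in EZH2nHom kainate libraries, with sums of 103 to 434 CPM, than in WT kainate libraries, with sums of 552 to 1973 CPM. With the structural RNA share as a covariate, 0 members passed between the genotypes after kainate, and 9 members passed for kainate in EZH2nHom mice and 8 in WT mice, where Ccl2 was lost. The part of red blood cell RNA in the chemokine values was not tested.

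The difference of the 2 kainate responses, EZH2nHom minus WT, passed for no member and for 0% of all tested genes with edgeR, although 1685 genes had an unadjusted p below 0.05 and DESeq2 called 15 genes. It was positive for 8 members and negative for Ccl6 and Cx3cl1. For Ccl2 it was 2.49 (95% interval -1.70 to 6.67), for Cxcl10 1.88 (95% interval -0.95 to 4.72), for Ccl12 0.85 (95% interval -1.19 to 2.89) and for Ccl3 0.19 (95% interval -1.76 to 2.14), all on the log2 scale. Intervals of this width include both no difference and several doublings. Ccl5 had the smallest adjusted p, 0.47, and no fold is given for it because its EZH2nHom saline reads were 0.

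Of 18 chemokine receptor genes 5 were tested. In EZH2nHom mice 4 passed as higher after kainate and in WT mice 3, with a median log2 fold change of 1.23 and 1.10, and none passed as lower. Ccr1, the receptor of Ccl3, Ccl5, Ccl6 and Ccl9, had 2.89, 2.86, 1.41 and 2.08 CPM in EZH2nHom kainate libraries, against 0.238 to 0.829 CPM in EZH2nHom saline libraries. Ccr1 had 0.736 to 4.59 CPM in WT kainate libraries, against 0.277 to 0.413 CPM in WT saline libraries. It rose by a log2 fold change of 2.13 ± 0.48 (SE, adjusted p = 0.00288) in EZH2nHom mice and 2.54 ± 0.49 (SE, adjusted p = 0.0017) in WT mice. Cxcr4, the receptor of Cxcl12, passed in EZH2nHom mice (0.91 ± 0.20, SE, adjusted p = 0.0024) and had 0.57 ± 0.19 (SE, adjusted p = 0.0573) in WT mice.

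The receptor genes Cx3cr1 and Ccr2 set EZH2nHom kainate replicate 2 apart, although the summed microglia and monocyte markers did not. Cx3cr1, the microglial receptor of Cx3cl1, had 134, 26, 118 and 178 CPM in EZH2nHom kainate libraries, against 45.0 to 51.6 CPM in EZH2nHom saline libraries. Ccr2, which marks inflammatory monocytes, had 4.32, 0, 1.87 and 8.84 CPM in EZH2nHom kainate libraries, against 0.152 to 0.541 CPM in EZH2nHom saline libraries. In replicate 2 both receptors were below every saline library of the genotype, and the absence of Ccr2 reads allows up to 0.110 CPM, while Ccl2, Ccl3, Ccl12 and Cxcl16 were highest or next to highest of the group there. Its microglia marker sum was 686 CPM, against 258 to 301 CPM in EZH2nHom saline libraries. Its monocyte and macrophage sum, of a list that includes Ccr2, was 188 CPM, against 44.6 to 58.4 CPM in those saline libraries. Its neutrophil marker sum was 13.8 CPM, against 0.993 to 2.52 in the other EZH2nHom kainate libraries. The log2 fold change in EZH2nHom mice was 1.23 ± 0.35 (SE, adjusted p = 0.0136) for Cx3cr1 and 3.56 ± 1.01 (SE, adjusted p = 0.0146) for Ccr2. Without replicate 2 these were 1.56 and 3.96, and without replicate 4 both lost the call (adjusted p = 0.0684 and 0.0679).

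In WT mice no library behaved in that way. Cx3cr1 had 87.5, 101, 139, 219 and 92.4 CPM in WT kainate libraries, against 58.7 to 62.2 CPM in WT saline libraries, and its log2 fold change was 1.10 ± 0.33 (SE, adjusted p = 0.0363), a call lost in 12 of 29 alternatives. Ccr2 had 0.767, 1.16, 6.53, 13 and 0.506 CPM in WT kainate libraries, against 0.449 to 0.963 CPM in WT saline libraries, so only replicates 3 and 4 and, narrowly, replicate 2 were above saline. Its log2 fold change of 2.94 ± 0.94 (SE, adjusted p = 0.0481) passed by a narrow margin and lost the call in 20 of 29 alternatives. Without WT kainate replicate 4 only 1 of the 5 receptors passed in WT mice, and without EZH2nHom kainate replicate 2, 5 of 6 tested passed in each genotype. Of 5 atypical receptors, which bind chemokines without attracting cells, 2 passed as higher in each genotype and none as lower, and none of the 5 passed in WT mice without WT kainate replicate 4. Ccrl2 had a log2 fold change of 1.72 ± 0.32 (SE, adjusted p = 0.000679) in EZH2nHom mice and 1.0 ± 0.31 (SE, adjusted p = 0.0411) in WT mice. Its WT call was lost in 14 of 29 alternatives. For Ccrl2, WT kainate replicate 1, at 0.448 CPM, lay below the WT saline libraries, at 0.518 to 0.619 CPM. Cxcr3, the receptor of Cxcl10, and Cxcr6, the receptor of Cxcl16, had 52 and 44 reads over all libraries and were not tested.

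Among 28 other chemokine ligands, 12 had enough reads to be tested. In EZH2nHom mice 4 passed as higher and 1 as lower after kainate, and in WT mice 2 as higher and 2 as lower, with a median log2 fold change of 0.36 and 0.50. Cxcl9, like Cxcl10 an interferon-induced Cxcr3 ligand, had 1.78, 0.183, 0.923 and 1.99 CPM in EZH2nHom kainate libraries, against 1 read in all EZH2nHom saline libraries. Cxcl9 had 0.111 to 0.471 CPM in WT kainate libraries and no read in any WT saline library, so no fold is given (adjusted p = 5.38e-05 in EZH2nHom and 0.00226 in WT mice). Between EZH2nHom kainate and WT kainate libraries 2 of the 12 passed as higher and 1 as lower. Cxcl9 differed by 2.13 ± 0.55 (SE, adjusted p = 0.0293), Cxcl1 by 3.53 ± 0.87 (SE, adjusted p = 0.0205) and Cxcl12 by -0.60 ± 0.15 (SE, adjusted p = 0.0182) on the log2 scale, and only Cxcl12 of these 3 had no overlap between the groups. Without EZH2nHom kainate replicate 2, and likewise without WT kainate replicate 4, 1 passed as higher and 1 as lower. Cxcl1, a neutrophil attractant, had 0.402, 4.69, 0.0231 and 1.29 CPM in EZH2nHom kainate libraries, against 0.0541 to 0.122 CPM in EZH2nHom saline libraries, and was highest in replicate 2 and below saline in replicate 3. Its log2 fold change in EZH2nHom mice was 4.02 ± 0.91 (SE, adjusted p = 0.00299), and 2.54 without replicate 2. Ccl8, a further ligand of the Ccl2 group, rose by a log2 fold change of 3.72 ± 0.71 (SE, adjusted p = 0.00084) in EZH2nHom mice and 2.95 ± 0.66 (SE, adjusted p = 0.00568) in WT mice. The saline libraries held 6 Ccl8 reads in all in EZH2nHom mice and 9 in WT mice. WT kainate replicate 1, at 0.0959 CPM, lay inside the WT saline range of 0 to 0.108 CPM. The WT call of Ccl8 was lost with the structural RNA covariate. Cxcl12, a homeostatic chemokine that binds Cxcr4, fell instead. It had 13.6, 9.57, 10.1 and 12.3 CPM in EZH2nHom kainate libraries, against 19.3 to 25.7 CPM in EZH2nHom saline libraries, and 14.3 to 23.8 CPM in WT kainate libraries, against 22.5 to 28 CPM in WT saline libraries. The log2 fold change of Cxcl12 was -1.0 ± 0.15 (SE, adjusted p = 8.29e-05) in EZH2nHom mice and -0.57 ± 0.14 (SE, adjusted p = 0.00859) in WT mice. Its WT call was also lost with the structural RNA covariate.

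**Figure D4:**
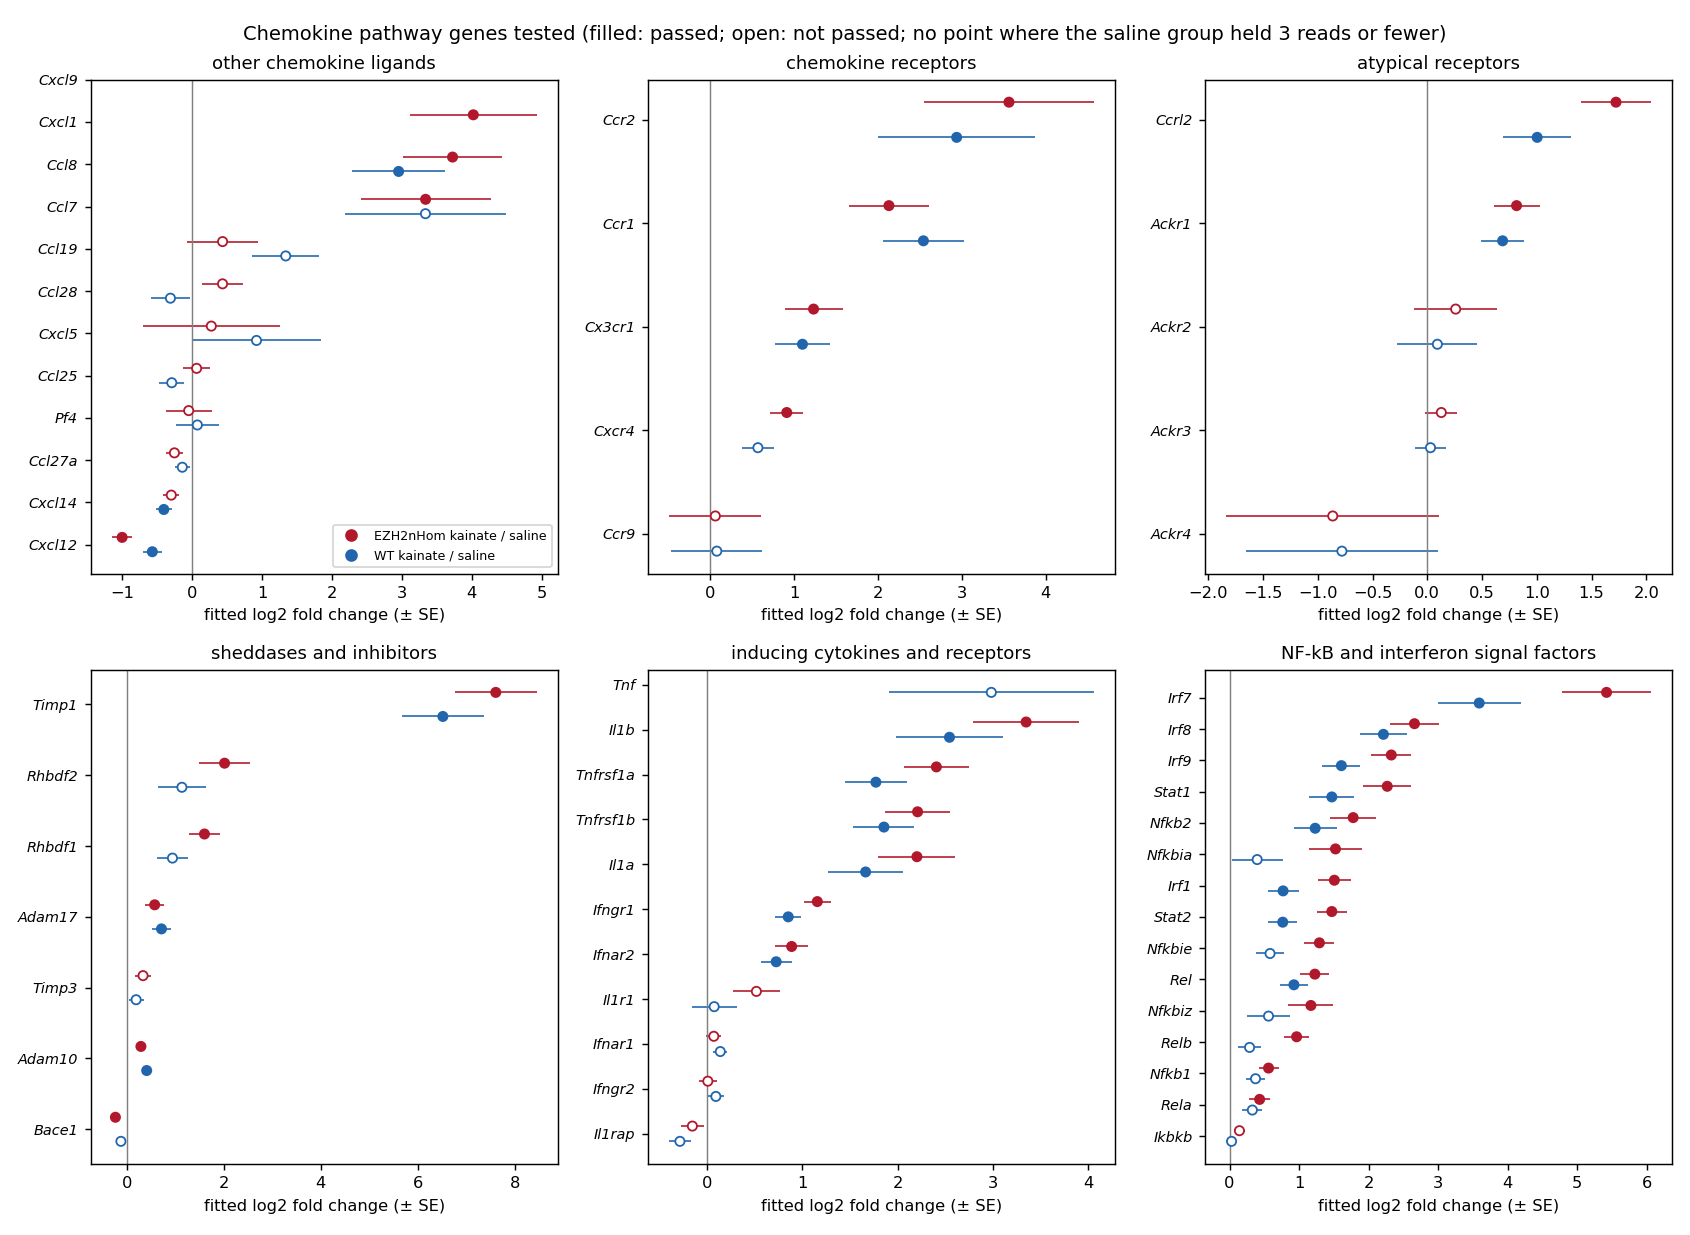
Fitted log2 fold change of kainate over saline, with its SE, for tested genes of 6 chemokine pathway lists in EZH2nHom and WT mice; filled points passed and open points did not, and genes whose saline group held 3 reads or fewer have no point. Timp1 and Irf7 had the largest values of their lists, 7.61 and 5.42 in EZH2nHom mice, and Cxcl12 was the lowest of the other ligands, at -1.0.

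Of 7 genes tied to the release of membrane-anchored chemokines, proteases and inhibitors among them, 5 passed as higher and 1 as lower in EZH2nHom mice. Of the same 7, 3 passed as higher and none as lower in WT mice, where 4 did not pass. The median log2 fold change was 0.58 in EZH2nHom and 0.72 in WT mice. Adam10, a protease that cuts Cx3cl1 and Cxcl16 from the membrane, had a log2 fold change of 0.29 ± 0.10 (SE, adjusted p = 0.0317) in EZH2nHom mice and 0.41 ± 0.09 (SE, adjusted p = 0.00568) in WT mice. The Adam10 call was lost in 5 of 28 alternatives in EZH2nHom mice and in 1 of 29 in WT mice. Timp1, an inhibitor of metalloproteinases, rose by a log2 fold change of 7.61 ± 0.84 (SE, adjusted p = 1.26e-05) in EZH2nHom mice and 6.52 ± 0.84 (SE, adjusted p = 0.000128) in WT mice. Of 11 tested genes for inducing cytokines and their receptors, 7 passed as higher in EZH2nHom mice and 6 in WT mice and none as lower, with a median of 1.16 and 0.85. Il1b, an inflammatory cytokine of myeloid cells, rose by 3.35 ± 0.56 (SE, adjusted p = 0.000258) in EZH2nHom mice and 2.55 ± 0.56 (SE, adjusted p = 0.0053) in WT mice on the log2 scale. The WT call of Il1b was lost with the structural RNA covariate. Of 15 NF-kB and interferon signal factors, 14 passed as higher in EZH2nHom mice and 8 in WT mice and none as lower, with a median of 1.47 and 0.77. Without EZH2nHom kainate replicate 2, 12 of the 15 passed in EZH2nHom mice, and without WT kainate replicate 4, 5 passed in WT mice. Irf7, a factor of the type I interferon response, had 44.3, 10.3, 32.4 and 111 CPM in EZH2nHom kainate libraries, against 0.821 to 1.27 CPM in EZH2nHom saline libraries, and 4.19 to 30.3 CPM in WT kainate libraries, against 0.83 to 1.41 CPM in WT saline libraries. Irf7 passed between EZH2nHom kainate and WT kainate libraries at a log2 difference of 1.82 ± 0.54 (SE, adjusted p = 0.0465), the only one of the 15 factors to do so. In that comparison 9 factors passed without WT kainate replicate 4, and 4 without EZH2nHom kainate replicate 2. Ifng, Ifnb1 and Il6, with 7, 5 and 33 reads over all libraries, were not tested.

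The genes nearest to each member in profile were found among 15260 genes of at least 1 CPM on average, by the root mean square difference of centred log2 CPM over the 19 libraries. Nearest to Cxcl10 were Oasl1 and Zbp1, at 0.68 and 0.78, where Cxcl10 itself varied by 3.06 around its mean. Nearest to Ccl2 was Cd300lf at 0.80, to Ccl12 Tubb6 at 0.56, to Ccl3 Treml2 at 0.83, to Ccl4 Bub1 at 0.74 and to Ccl5 Ly9 at 0.67. Nearest to Cxcl16 were Fcgr2b and Cd44, at 0.35 and 0.37. Ccl6 and Ccl9, whose own spread was smaller, lay 0.23 from 9930111J21Rik2 and 0.23 from Pole, and Cx3cl1 lay 0.09 from Ank1 and 0.09 from Atcay. These distances describe likeness over shared libraries and depend on how much each member varies.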

How the data were processed

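Hippocampal total RNA was sequenced in 19 libraries. The authors deposited read counts per gene, used here as they stand, with no columns left unassigned; the reads were processed against mm39 with DESeq2 and DESeq named, per the submitters' processing notes, and the aligner, counter, annotation and strand setting are not given in the sources used here. Members' symbols came from the authors' deposited annotation table, whose size-factor scaled signal, log2 fold change, score (test statistic) and p-value columns name no comparison and were not printed. Counts of all 19 libraries were fitted per group in edgeR 4.0.16 (R 4.3.3; TMM scaling, filterByExpr, robust quasi-likelihood fit), with Benjamini-Hochberg adjustment over 19234 genes and a threshold of 0.05. The SE is the log2 fold change divided by the square root of the F statistic, and intervals are 95%. The fit was tested on simulated data. DESeq2 1.42.0, other scalings and filters, covariates, a replicate block and leaving out each library were alternatives; list counts without EZH2nHom kainate replicate 2 or WT kainate replicate 4 were chosen after seeing the data. GENCODE M21 gave exon lengths and overlaps, and RefSeq (GRCm38.p6) gave promoters for 6 of the 10 members; coordinates were not converted between builds. The text names the members, Ezh2, the 4 genes of smallest p per pathway list, the members' receptors and the nearest profiles; 1 receptor is not reported here and is left out of its list. Trac, Cd4, Cd3g, Ncr1, Cd3e, Art3, Zmynd15, Ifng, Ifnb1, Il6, Xist and the Y-linked genes are named beside these for a result or a marker check. The members and lists were chosen with earlier results of these data known. The labels give separate samples but no animal numbers, so p-values measure the spread between these samples.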

Additional observations from a re-analysis of the deposited data

Results flagged for a closer look

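Ccl5 in EZH2nHom kainate replicate 4 was 4.22 CPM, far above the other libraries of its group, which had 1.22 to 1.46 CPM. Ccl5 in WT saline replicate 3 was 0.0688 CPM, against 0.0269 to 0.0346 CPM in the other WT saline libraries, a step of 2 reads against 1. Of 39 gene and group combinations examined these 2 stood out, and chance gives about 1 in 20.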

How the results depend on the processing

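In EZH2nHom mice 9 members passed under every alternative run there. Those runs did not include the prefix block, because no EZH2nHom prefix occurs in both arms. In WT mice 9 passed when any 1 library was left out, 8 with the structural RNA covariate (Ccl2 was lost), 7 of 8 tested in a fit to only the WT libraries, and 0 with the code prefix as a block in 6 WT libraries, as did 0 of all genes. That prefix fit held few saline libraries, so its lack of calls does not show a lack of response. Between genotypes after saline, 1 member passed in a fit to only the saline libraries and 1 with the structural RNA covariate. After kainate, 0 to 7 members passed when 1 library was left out, 7 without WT kainate replicate 4. Over all genes, kainate calls in EZH2nHom mice were 5012, and 3066 in a fit to only their libraries. In WT mice they were 2316, against 738 with the structural RNA covariate and 1365 without WT kainate replicate 4. Genotype calls after saline were 2596, against 5604 in a fit to only the groups compared and 1473 with the structural RNA covariate. After kainate they were 1463, against 2273 with DESeq2, 4 in a fit to only the groups compared, 959 without a filter and 735 with the replicate block. At an adjusted p under 0.01 the calls were 2815 and 1083 for kainate in EZH2nHom and WT mice, and 1212 and 284 for genotype after saline and kainate. Leaving out 1 library gave 1365 to 3414 kainate calls in WT mice, 1675 to 4296 and 670 to 2193 genotype calls after saline and kainate, and 0 to 4 response differences. Same-numbered libraries did not all have deviations correlated above 0.1, so the numbers were not taken to pair them: -0.05 to 0.08 in EZH2nHom mice (1 of 4 kainate libraries matched its own number best), 0.07 to 0.30 in WT mice (4 of 5, a hint from the data and not the design), and between genotypes 0.02 to 0.31 after saline (2 of 5) and -0.05 to 0.37 after kainate (1 of 4). These numbers are those of the sample titles. The deposited count columns number the EZH2nHom kainate libraries 2 to 5, where the titles give 1 to 4. Pairing by the column numbers was not tried, so the EZH2nHom kainate matches hold for the title numbers only. With the title numbers as a replicate block 9 members passed in each genotype and no member's call changed. Cx3cr1 and Ccr2 lost their kainate calls in both genotypes, Adam10 in EZH2nHom mice, and Ccrl2 and the signal factor Stat2 in WT mice. With that block the response difference of Cx3cl1 turned to 0.0071. Of the genotype differences that changed sign, none had passed in the fit to all 19 libraries, though Ccl6 after saline passed in the fit to only the saline libraries. After saline, with the covariate from 4 Y-linked genes, Ccl12 was -0.0156 and Cxcl16 -0.30; with the structural RNA covariate Ccl3 was -0.0181, Ccl4 -0.28, Ccl6 -0.17, Ccl9 -0.10 and Ccl12 -0.27. Also with that covariate, Ccl6 was -0.00156 after kainate and 0.17 for the response difference. Leaving out 1 library, Cxcl10 ran from -0.53 to 0.15 and Cxcl16 from -0.12 to 0.22 after saline, and Ccl6 from -0.0223 to 0.82 after kainate. The response difference ran from -0.0753 to 0.76 for Ccl3, -0.29 to 0.82 for Ccl4, -0.57 to 0.27 for Ccl6, -0.16 to 0.37 for Ccl9 and -0.22 to 0.00101 for Cx3cl1. In WT mice Ackr3 ran from -0.10 to 0.10 and Ackr4 from -1.18 to 0.41. The causes were not tested. Depth limits Ccl2, Ccl4 and Ccl5 after saline, at 0 to 4 reads per library.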
